A study of Mus musculus with 32 samples.

Results

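The mitosis genes are a list of 34 transcripts whose products carry a cell through the separation of its chromosomes and its division. The list was given by gene name, and 33 of the 34 were measured: each was read on the Affymetrix Mouse 430_2 array through 1 probe set that the platform annotation gives to that gene alone, the one with the highest mean where a gene had several. Ccnb1, which encodes cyclin B1, had no such probe set and was not analysed here. All 33 passed the filter on low signals and stand among the 13345 genes tested. The arrays hold total RNA from a portion of the lung of 32 C3H/HeN mice, 1 array per mouse. Gsr encodes glutathione reductase, the enzyme that returns oxidised glutathione to its reduced form. The study compared Gsr knockout mice (Gsr-KO, called KO below) with Gsr wildtype mice (Gsr-WT, called WT). Lungs were taken at embryonic day 19 (E19) with no exposure, at postnatal day 5 (P5) after 5 days of hyperoxia (100% O2) or room air, and at P56 in adults that had spent those first 5 days in hyperoxia or air and then recovered in air. The 10 groups are KO and WT at E19 with 4 arrays each, and KO and WT after hyperoxia or air at P5 and at P56 with 3 arrays each. The labels do not give the design of the knockout allele, the litters or the sex of the mice.

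Mitosis is run by a kinase engine, cyclin-dependent kinase 1 with cyclins A and B, which other kinases of the Polo and Aurora families assist. Chromosomes are held to spindle microtubules by the kinetochore, the spindle checkpoint delays separation until every chromosome is attached, and the anaphase-promoting complex then destroys the cyclins before a contractile ring divides the cell. Transcripts of these genes are made late in the cell cycle, so a tissue in which few cells divide holds little of them, and the lung around birth is a growing organ with dividing epithelial, vascular and mesenchymal cells.

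A short promoter code is known from cell-cycle genes of this class: the cell-cycle genes homology region (CHR), read here as TTTGAA or TTCGAA, and the CCAAT box bound by the factor NF-Y. RefSeq promoter windows of the GRCm38.p6 build, 250 bases before to 50 after the transcription start, were matched by symbol to 29 of the 34 genes, with 31 promoters in all. Aurkb, Ccna2, Incenp, Kif20a and Tpx2 were not matched. With both strands searched, a CHR stood in 80.6% of the 31 promoters, against 19.2% of all 32851 promoters of the table, and a CCAAT in 77.4% against 37.4%. Both motifs stood together in 71.0% of the mitosis promoters against 7.52% of all promoters, and 2 or more CCAAT in 51.6% against 11.7%. By gene, 23 held a CHR, 22 a CCAAT, 20 both and 4 neither: Birc5, Mad2l1, Nuf2 and Nusap1. The 6 windows below are shown because they span this range, from the many motifs of Top2a to none in Birc5, which had the largest difference of the list between the genotypes at E19. They run 5′ to 3′ on the strand of the gene, and capitals mark the CHR and CCAAT matches of either strand (TTCAAA or ATTGG where the match is on the other strand).

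Cdk1 (chr10:69352863-69353162, minus strand): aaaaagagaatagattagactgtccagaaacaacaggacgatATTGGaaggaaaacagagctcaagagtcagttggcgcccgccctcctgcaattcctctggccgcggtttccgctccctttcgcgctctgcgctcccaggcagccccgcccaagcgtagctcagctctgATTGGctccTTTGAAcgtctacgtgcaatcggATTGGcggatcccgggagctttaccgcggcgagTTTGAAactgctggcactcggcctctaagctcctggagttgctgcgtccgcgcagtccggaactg

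Ccnb2 (chr9:70421505-70421804, minus strand): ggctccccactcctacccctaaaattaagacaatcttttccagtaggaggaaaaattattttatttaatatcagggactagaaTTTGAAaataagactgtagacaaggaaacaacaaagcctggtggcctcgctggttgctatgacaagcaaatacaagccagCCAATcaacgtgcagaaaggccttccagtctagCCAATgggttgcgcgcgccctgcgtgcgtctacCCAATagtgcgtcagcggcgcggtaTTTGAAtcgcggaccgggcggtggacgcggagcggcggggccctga

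Aurka (chr2:172370521-172370820, minus strand): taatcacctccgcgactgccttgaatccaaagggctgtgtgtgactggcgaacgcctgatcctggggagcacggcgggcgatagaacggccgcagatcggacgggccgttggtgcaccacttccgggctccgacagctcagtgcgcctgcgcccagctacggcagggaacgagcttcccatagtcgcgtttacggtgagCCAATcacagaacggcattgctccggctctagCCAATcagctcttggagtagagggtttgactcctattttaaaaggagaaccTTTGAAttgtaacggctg

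Cdc20 (chr4:118437294-118437593, minus strand): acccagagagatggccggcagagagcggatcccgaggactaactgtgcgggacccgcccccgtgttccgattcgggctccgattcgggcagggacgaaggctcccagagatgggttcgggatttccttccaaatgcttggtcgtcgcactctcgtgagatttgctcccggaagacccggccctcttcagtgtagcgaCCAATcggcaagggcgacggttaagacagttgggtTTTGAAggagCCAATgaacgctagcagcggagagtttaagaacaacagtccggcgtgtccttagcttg

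Top2a (chr11:99024140-99024439, minus strand): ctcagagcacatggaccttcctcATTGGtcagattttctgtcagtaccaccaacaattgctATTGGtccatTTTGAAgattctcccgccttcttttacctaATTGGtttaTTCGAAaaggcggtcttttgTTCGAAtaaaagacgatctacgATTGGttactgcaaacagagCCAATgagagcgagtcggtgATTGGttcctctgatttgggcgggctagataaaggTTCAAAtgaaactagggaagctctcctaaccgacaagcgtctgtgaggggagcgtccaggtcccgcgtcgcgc

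Birc5 (chr11:117848987-117849286, plus strand): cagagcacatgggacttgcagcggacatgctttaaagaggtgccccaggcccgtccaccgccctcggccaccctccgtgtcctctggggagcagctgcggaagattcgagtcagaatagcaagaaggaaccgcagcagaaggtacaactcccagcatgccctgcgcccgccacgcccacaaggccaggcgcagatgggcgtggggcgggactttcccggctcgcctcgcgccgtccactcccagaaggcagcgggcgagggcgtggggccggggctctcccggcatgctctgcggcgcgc

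The windows differ in where the letters fall. In Cdk1 the CHR nearest to the start lies at -15 and in Cdc20 at -18, while in Ccnb2 and Aurka it lies after the start, at 5 and 33. In Ccnb2 the CCAAT matches lie at -87, -54 and -21, and in Aurka at -51 and -19 (positions are those of the first base of the match, counted from the transcription start). A match is a description of these letters and no measured site, and no match says only that the letters are not in this window.

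**Figure D1:**
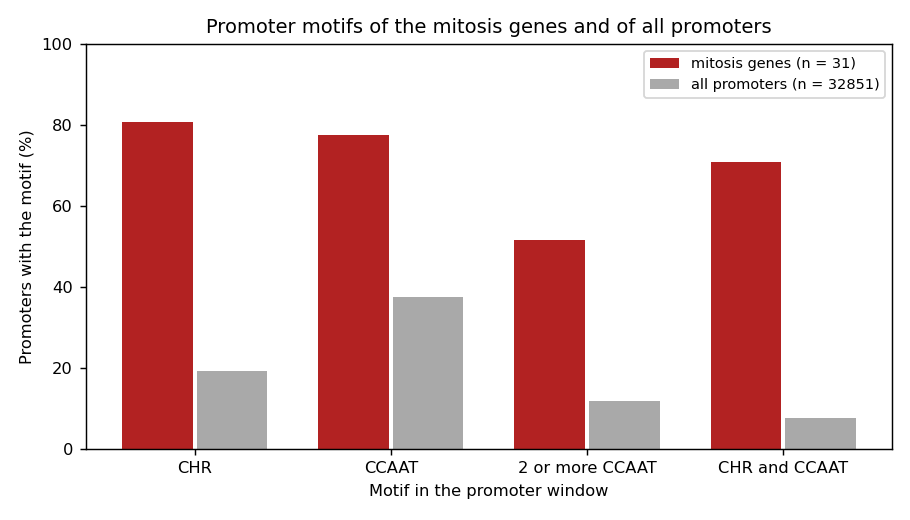
Share of promoter windows (%) that hold a CHR, a CCAAT, 2 or more CCAAT, or both motifs, for the 31 promoters of the mitosis genes (red) and all 32851 promoters of the RefSeq table (grey). Both motifs stood together in 71.0% of the mitosis promoters and in 7.52% of all promoters.

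Values are signals scaled by the authors with the MAS5 method. They were tested as log2(signal + 26.3), with limma over all 32 arrays and 10 group means, and a gene is said to rise or fall where its Benjamini-Hochberg adjusted p over the 13345 genes is under 0.05. Changes are differences of group means on that log2 scale, KO minus WT, hyperoxia minus air or the later age minus the earlier. Sums of signal per array ran from 31173000 to 35272000. Gsr read 138 to 257 in KO arrays and 498 to 1541 in WT arrays, as labelled, and the 6 lung epithelium markers (Sftpc, Sftpb, Sftpa1, Scgb1a1, Ager and Hopx) read above 100.4, the median of all values, in every array. Several arrays stood apart. KO E19 replicate 1 and WT P56 hyperoxia replicate 2 had mean log2 3'/5' ratios of control probe sets, a sign of RNA quality, of 4.37 and 2.84, and the lowest median signals, 68.4 and 76.2. WT E19 replicates 2 to 4 and the WT P5 air lungs carried transcripts of liver. The array nearest to KO P5 air replicate 1 was KO E19 replicate 2 (r = 0.976 over the genes tested), while its closest fellow of KO P5 air reached r = 0.961. The nearest to WT E19 replicate 1 was KO P5 air replicate 1 (r = 0.974), and its highest r with another WT E19 lung was 0.937. Cdkn1a, which encodes the p53-induced inhibitor p21, went against the labels of a pair of P5 arrays: it read 1296, 8384 and 8155 in the KO hyperoxia lungs and 8589, 6471 and 6329 in the WT hyperoxia lungs, against 1881, 883 and 924 in KO air and 848, 839.9 and 6352 in WT air. Values without these arrays stand beside the results that they move.

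**Figure D2:**
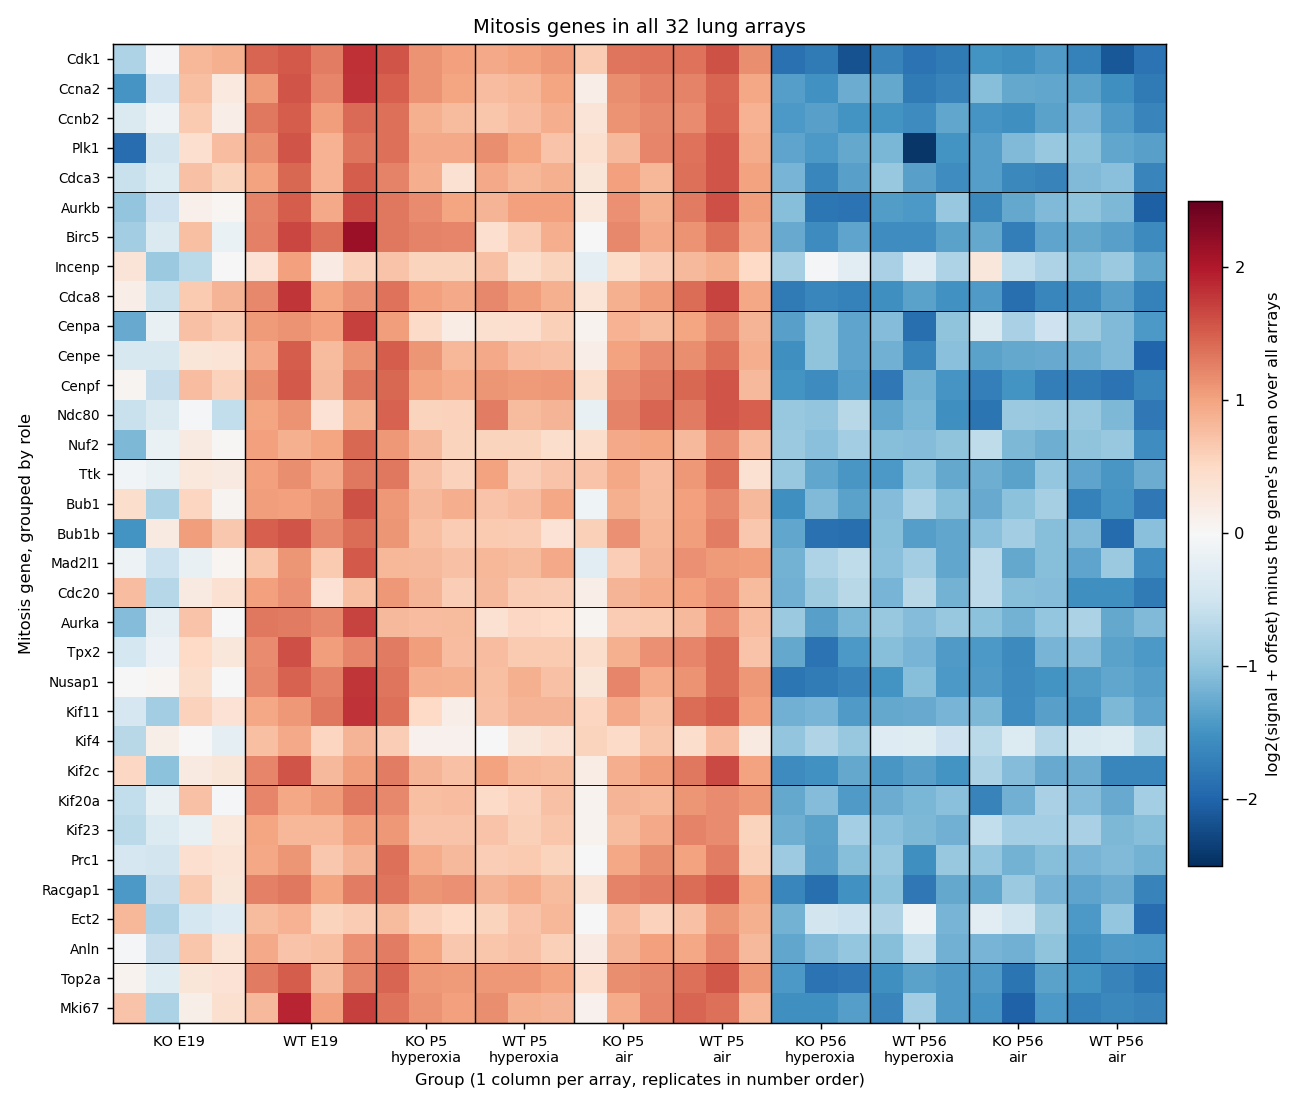
Signal of the 33 mitosis genes (rows, grouped by role) in each of the 32 arrays (columns, by group, KO left of WT and hyperoxia left of air), as log2(signal + 26.3) minus the gene's mean over all arrays. The 12 adult (P56) columns are low for nearly every gene, and of the younger lungs the KO E19 columns and KO P5 air replicate 1 are the lowest.

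The widest differences in this list lay between the ages. The level of the list, the mean over the 33 genes of each array's log2 signal after centring each gene on its mean over the 32 arrays, was -0.42, -0.41, 0.39 and 0.24 in KO and 1.07, 1.31, 0.91 and 1.33 in WT at E19. At P5 it was 1.22, 0.86 and 0.74 in KO and 0.78, 0.75 and 0.77 in WT after hyperoxia. In air it was 0.23, 0.95 and 0.99 in KO and 1.14, 1.35 and 0.86 in WT. All 12 adult lungs lay between -1.51 and -1.12, below every younger lung. Between arrays of 1 group the genes varied most in KO E19, with a median SD of 0.60 over the 33 genes (0.43 over all genes tested), and in KO P5 air, with 0.44 (0.20 over all genes). In the other 8 groups the median SD of the list was 0.10 to 0.29. In whole-lung RNA, fewer dividing cells and less RNA per dividing cell cannot be told apart.

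Before birth, KO lungs held less of almost every mitosis transcript than WT lungs. Of the 33 genes 32 fell at E19 and none rose, with a median change of -1.19 over the list (range -1.77 to -0.66) against -0.0505 over all genes tested; limma called 8.28% of all genes lower. The largest falls were those of Birc5 at -1.77 (SE 0.26), which encodes survivin, Aurkb at -1.66 (SE 0.25), which encodes Aurora kinase B, and Ccna2 at -1.65 (SE 0.30), which encodes cyclin A2. The gene that did not pass was Cdc20, the activator of the anaphase-promoting complex, at -0.66 (SE 0.23, adjusted p = 0.0539). For 30 of the 33 genes every KO array lay below every WT array, which held for 5.63% of all genes; the exceptions were Cdc20, Ect2 and Incenp. The 25 other probe sets of these genes gave changes of the same sign, 20 of them called.

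The engine of mitotic entry fell in all 5 measured genes. Cdk1, the kinase itself, read 414, 702, 1307 and 1353 in KO lungs, against 2035, 2149, 1795 and 2628 in WT lungs. Its cyclin Ccna2 read 238, 501, 1203 and 844 in KO, against 1505, 2156, 1681 and 2536 in WT. The groups did not overlap for either gene, and the changes were -1.30 (SE 0.24, adjusted p = 0.000779) and -1.65 (SE 0.30, adjusted p = 0.000607). The smallest change of the group was that of Cdca3, which helps destroy the entry inhibitor Wee1, with 186, 220.1, 492 and 435 in KO against 606, 819.8, 549 and 865 in WT, a change of -1.11 (SE 0.25). Ccnb2, which encodes cyclin B2, and Plk1, the Polo-like kinase, fell by 1.24 and 1.53 on the log2 scale. Plk1 read 56.9, 199, 391 and 503 in KO, so that replicate 1 was under the median of all values, against 666, 899, 544 and 763 in WT.

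The chromosomal passenger complex, which corrects faulty attachments and later starts cytokinesis, fell in all 4 subunits. Birc5 read 263, 382, 865 and 442 in KO, against 1238, 1654, 1334 and 2294 in WT, and the highest KO lung stayed below the lowest WT lung. Its adjusted p was 6.88e-05. Aurkb, the kinase of the complex, read 94.6, 141, 235 and 223 in KO, against 537, 656, 436 and 718 in WT. Incenp, the scaffold, read 2218, 913, 1092 and 1776 in KO, against 2269, 3626, 2051 and 2638 in WT. Here KO replicate 1, the array with the high 3'/5' ratio, lay within the WT range, and the change was the smallest of the complex, at -0.86 (SE 0.25, adjusted p = 0.0220). Cdca8, which encodes borealin, fell by 1.01.

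The 5 kinetochore genes fell as well. Nuf2, a subunit of the NDC80 complex that grips microtubule ends, read 95.6, 211, 284 and 245 in KO, against 513, 462, 495 and 694 in WT, the largest change of the group at -1.33 (SE 0.22, adjusted p = 0.000233). Cenpf, a large protein of the outer kinetochore, read 493, 308, 825 and 718 in KO, against 1081, 1419, 843 and 1207 in WT, and had the smallest change, -0.99 (SE 0.23). KO replicate 3 was the KO lung closest to the lowest WT lung there. Cenpa, the histone variant that marks the centromere, Cenpe, a kinetochore motor, and Ndc80 fell by 1.25, 1.14 and 1.23. Of the 5 checkpoint genes 4 fell. Bub1b, which encodes the checkpoint protein BubR1, read 37.7, 184, 343 and 261 in KO, against 483, 513, 387 and 448 in WT, a change of -1.31 (SE 0.32, adjusted p = 0.00691). Ttk, the kinase Mps1 at the top of the checkpoint, read 179, 165, 229 and 224 in KO, against 407, 453, 388 and 507 in WT, a change of -1.05 (SE 0.19, adjusted p = 0.000551). Its KO values were close together, unlike those of Bub1b, whose KO replicate 1 was the lowest by far. Bub1 and Mad2l1, which encode the checkpoint proteins Bub1 and Mad2, fell by 1.13 and 1.19. Cdc20, which the checkpoint holds inactive, read 3548, 1253, 2411 and 2724 in KO, against 4230.4, 4613, 2687 and 3493 in WT, and the groups overlapped.

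All 6 genes of spindle motors and assembly fell. Aurka, the kinase that matures centrosomes, read 109, 216, 443 and 262 in KO, against 689, 676, 634 and 894 in WT, a change of -1.53 (SE 0.23, adjusted p = 8.72e-05). Kif4, a chromosome-borne motor, read 137, 265, 236 and 198 in KO, against 415, 479, 354 and 449 in WT, the smallest change of the group at -0.96 (SE 0.17, adjusted p = 0.000440). In both the groups stood apart. Kif11, the motor that pushes spindle poles apart, Nusap1, a microtubule bundler, Tpx2, the activator of Aurora A, and Kif2c, a microtubule depolymerase, fell by 1.38, 1.31, 1.21 and 1.16. Nusap1 had the lowest adjusted p of the list in limma, 8.35e-06. The p-values and SEs given for E19 rest on a spread shared by all 10 groups. KO E19 varied more than the other groups over the list, with a median SD of 0.60 against 0.10 to 0.44. These p-values and SEs are therefore likely too small. With the E19 arrays alone the limma adjusted p of Nusap1 was 0.0494.

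The 6 cytokinesis genes fell too. Racgap1, a subunit of centralspindlin, read 109, 218, 549 and 420.4 in KO, against 844, 881, 699 and 852 in WT, a change of -1.47 (SE 0.29, adjusted p = 0.00105). Anln, which encodes the ring protein anillin, read 870.3, 596, 1476 and 1149 in KO, against 1769, 1507, 1548 and 2022 in WT. It had the smallest change of the called genes, -0.79 (SE 0.21, adjusted p = 0.00945), and its KO replicate 3 lay just below the lowest WT lung. Ect2, the exchange factor that activates RhoA, read 1705, 547, 697 and 749 in KO, against 1668, 1747, 1405 and 1490.4 in WT, and again KO replicate 1 alone reached the WT range (-0.89, SE 0.27, adjusted p = 0.0248). Kif20a, Kif23 and Prc1, which build the central spindle, fell by 1.17, 1.16 and 0.92. Of the chromosome proteins, Mki67, the proliferation marker Ki-67, read 2605, 906, 1759 and 2083 in KO, against 2781, 6002, 3219.9 and 5234 in WT, a change of -1.24 (SE 0.27, adjusted p = 0.00287). Top2a, which encodes DNA topoisomerase II alpha, read 1347, 1014, 1565 and 1638 in KO, against 3129.8, 3651, 2230.3 and 3008 in WT, a change of -1.10 (SE 0.18, adjusted p = 0.000272).

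**Figure D3:**
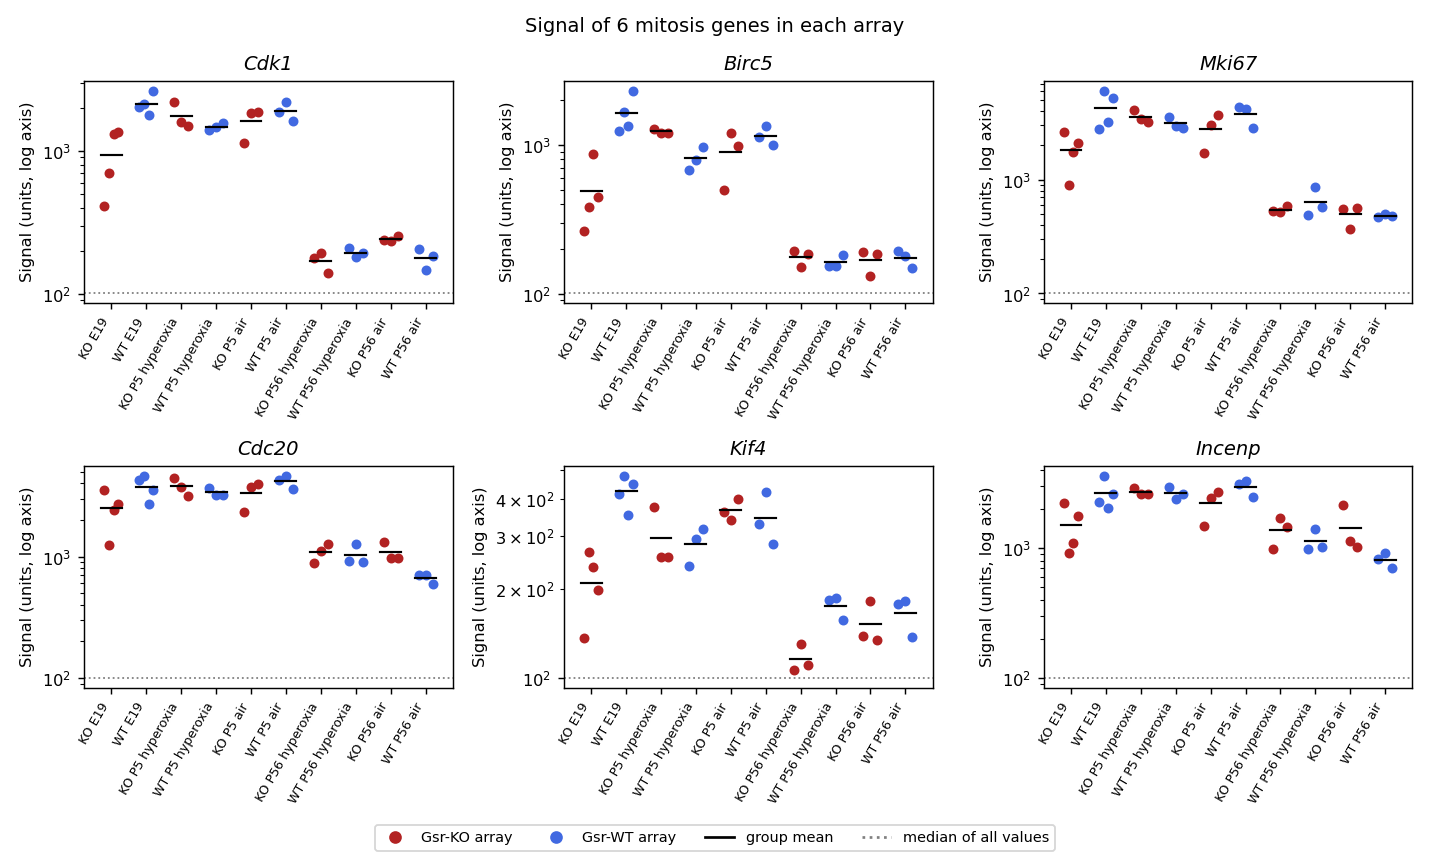
Signal (MAS5 units, log axis) of Cdk1, Birc5, Mki67, Cdc20, Kif4 and Incenp in each array (points, KO red and WT blue). Groups run with KO left of WT and hyperoxia left of air. Horizontal bars mark group means and the dotted line the median of all values, 100.4. At E19 the KO and WT points overlap for Cdc20 and Incenp and are separate for Cdk1, Birc5, Mki67 and Kif4.

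The arrays of 1 genotype were not alike. Relative to the WT mean, the median difference over the 33 genes was -1.50, -1.52, -0.76 and -0.92 in KO E19 replicates 1 to 4, and single genes of replicate 1 ran from -3.14 to 0.12. Replicates 2 and 3 lay below every WT lung for all 33 genes, replicate 4 for 32 and replicate 1 for 30. The share of all genes below every WT lung was not computed for each of these arrays. Without KO replicate 1 all 33 genes were called lower and the median was -1.05. The median change was similar for promoters with both a CHR and a CCAAT, -1.14 over 20 genes, and for the others -1.21 over 8 genes, as values with no test.

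Liver, erythroid and neutrophil precursor transcripts moved with this result. Of 13 liver genes 13 fell, with a median of -4.15; of 14 erythroid genes 11 fell (median -1.94), and of 5 neutrophil precursor genes 5 fell (median -2.54). The summed liver signal was 7947, 1565, 11671 and 6715 in KO E19 lungs, against 3767 in WT replicate 1 and 127902 to 244857 in WT replicates 2 to 4. Of the 13 liver genes 2, 9, 0 and 2 were under the median of all values in the KO lungs, against 3, 0, 0 and 0 in the WT lungs. The summed erythroid signal was 6422 to 9201 in KO, against 7277 in WT replicate 1 and 17457 to 42213 in the other WT lungs. In WT replicate 1, whose nearest array was KO P5 air replicate 1, liver and erythroid levels lay within the KO range, and 32 of the 33 mitosis genes were above every KO array, against 19.5% of all genes, and its mitosis level was 1.07 beside 0.91 to 1.33 in the other WT lungs. Of 6 lung epithelium genes 2 rose, Sftpa1 at 1.08 and Scgb1a1 at 0.50. Of 8 muscle genes 2 rose, of 5 squamous epithelium genes 3 fell and of 3 thymus genes none was called. WT replicate 1 was outside the KO range in other tissue markers. Its squamous level was 3.18, against -0.97 to -0.68 in the KO E19 lungs. Its muscle level was 1.27, against -0.91 to 0.88 in KO. The part of these cells in the mitosis result was not tested beyond these values.

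With the liver or the erythroid level as a covariate limma called 8 and 3 of the 33 genes lower, with medians of -1.03 and -0.97. With WT replicate 1 as the only WT lung it called 0 (median -1.09, where the lone array is assumed to vary like the other groups), and 0 with KO replicate 1 left out as well (median -0.94). A fit of the 8 E19 arrays alone called 1 gene, Nusap1 (adjusted p = 0.0494), with the same changes and a spread estimated from those arrays. The share of all genes called is not given for these fits. Their counts therefore cannot tell a loss of calls in the list from one over all genes.

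**Figure D4:**
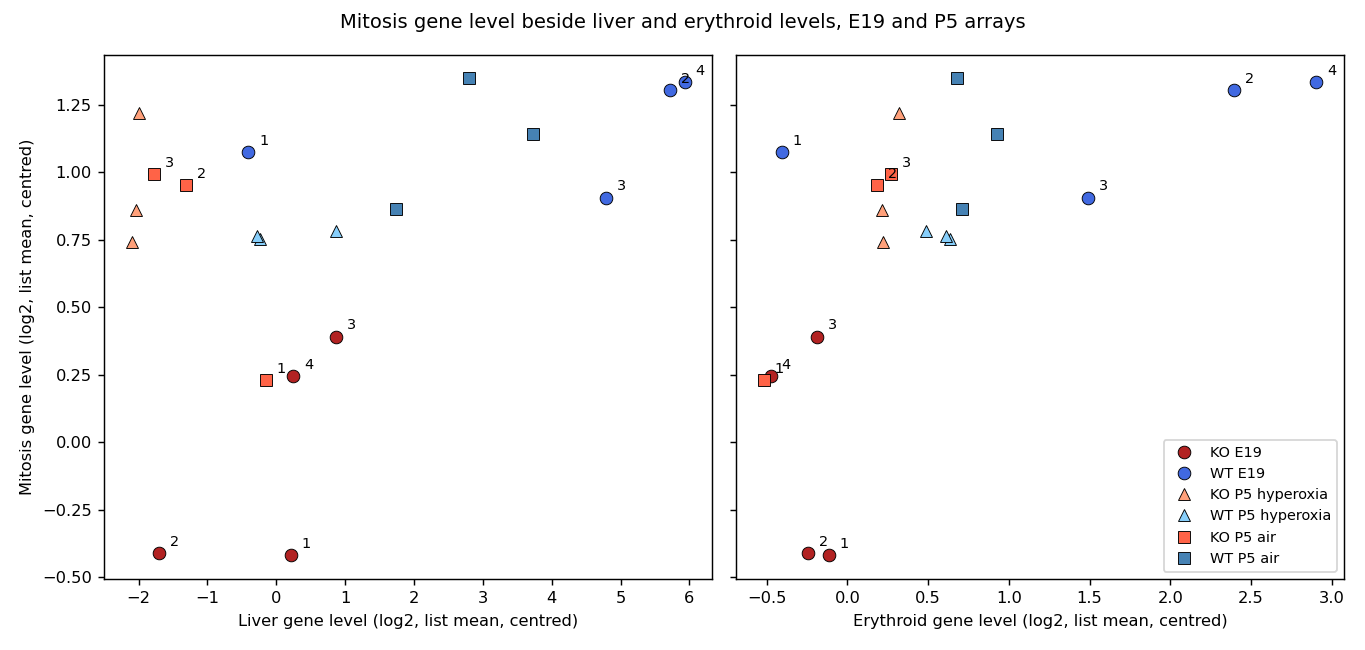
Mitosis gene level (y axis, log2, mean over the 33 genes after centring) against the liver level (left) and the erythroid level (right) of the E19 and P5 arrays, 1 point per array (numbers by the KO E19, WT E19 and KO P5 air points are replicates). The 4 KO E19 lungs have liver levels of -1.70 to 0.87 and mitosis levels of -0.42 to 0.39, while WT E19 replicate 1 sits at a liver level of -0.41 and a mitosis level of 1.07.

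Transcripts that belong to the same program were lower with them. Of 45 other mitosis genes 38 fell and none rose (median -1.01), among them Dlgap5 at -1.95, a spindle protein, Ccnf at -1.73, Ube2c at -1.71, the ubiquitin-conjugating enzyme of the anaphase-promoting complex, and Ska1 at -1.66. Of 38 DNA replication genes 32 fell (median -0.89), among them Tk1, the thymidine kinase, at -1.83, Cdc6, a loader of the replicative helicase, at -1.66, Uhrf1 at -1.46 and Mcm5 at -1.40. Of 17 condensin and cohesin genes 6 fell and 1 rose, with Esco2 at -1.65 and the condensin subunits Ncapg and Ncapd2 at -1.28 and -1.24. Of 14 genes of the anaphase-promoting complex and its regulators 2 fell, the activator Fzr1 at -1.38 and the inhibitor Fbxo5 at -1.31, and the list median was -0.23.

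The regulators split. Mybl2, the B-Myb factor of the complex that drives CHR promoters, read 59.3, 61.9, 96.3 and 66.3 in KO, against 145, 265, 155 and 278 in WT, and fell (-1.25, SE 0.22, adjusted p = 0.000463). Foxm1, its partner in late cell-cycle transcription, read 204, 172, 142 and 207 in KO, against 254, 202, 230.3 and 172 in WT, with a change of -0.22 (SE 0.15, adjusted p = 0.335). Between P5 and P56 in WT air, where all 33 mitosis genes fell, Foxm1 was not called either. It read 300, 259 and 192 at P5 and 177, 196 and 174 at P56. No other probe set of Foxm1 was examined. Of 22 cell-cycle transcription factor genes 6 fell at E19, also E2f8 at -1.30, E2f1 at -1.11 and Lin52 at -1.10. Of 9 genes of the G1 phase 4 fell, with cyclins E at -1.44 for Ccne1 and -1.57 for Ccne2, while the D cyclins Ccnd1 and Ccnd2 were at 0.16 and 0.31 and not called. Of 7 inhibitor genes, Cdkn1a rose: it read 1907, 2875, 2524 and 2874 in KO, against 1201, 842, 695 and 702 in WT (1.55, SE 0.48, adjusted p = 0.0288). Cdkn3, a phosphatase gene that is itself transcribed in dividing cells, fell by 1.07, and Cdkn1b and Cdkn1c were at 0.23 and -0.54, not called.

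**Figure D5:**
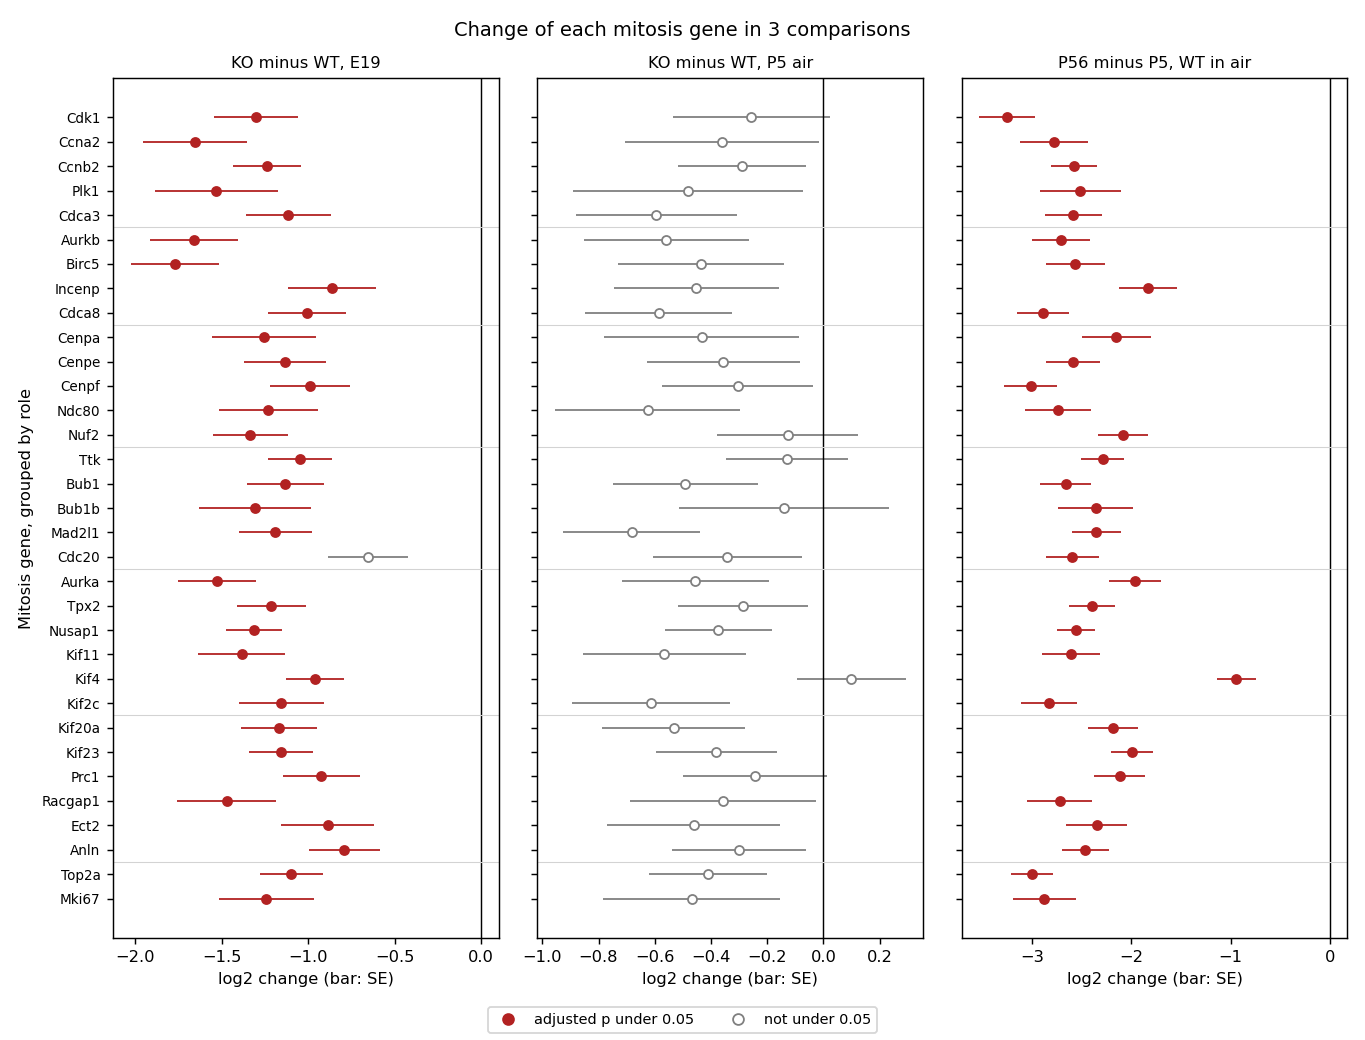
log2 change (x axis, own scale in each panel; bar, SE) of each of the 33 mitosis genes, grouped by role, for KO minus WT at E19, KO minus WT in P5 air and P56 minus P5 in WT air. Filled points have an adjusted p under 0.05: 32 genes in the first panel, 0 in the second and 33 in the third.

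Between E19 and P5 the list did not change in WT lungs by any call, and part of it rose in KO lungs. In WT air the median change was 0.0129 (range -0.47 to 0.63; 0 of 33 called where limma called 14.6% of all genes, and 0 of the 33 at an unadjusted p under 0.05, against 27.8% of all genes). Mki67, Top2a, Cdk1, Birc5 and Aurkb were at -0.14, 0.13, -0.17, -0.46 and -0.0093. Of the regulators Ccnd1 and Ccnd2 rose by 0.89 and 1.32 and Cdkn1c fell by 1.04. In the same WT comparison 5 of 5 neutrophil precursor genes (median -1.83), 3 of 14 erythroid genes (median -0.78) and 2 of 13 liver genes (median -1.50) fell. No gene of these marker lists was called in KO air, and their part in the mitosis values was not tested. In KO air 11 of the 33 genes rose, where 2.21% of all genes rose, with a median of 0.75 (range 0.46 to 1.23) against 0.0758 over all genes. All 33 changes were above 0, 29 had an unadjusted p under 0.05 (20.6% of all genes), and in 5 genes every P5 lung was above every E19 lung (5.16% of all genes). The risers were Ccnb2, Aurkb, Ndc80, Nuf2, Ttk, Tpx2, Nusap1, Kif4, Kif23, Racgap1 and Top2a, which come from all 7 role groups. Of the 25 other probe sets of the 33 genes 24 gave a change of the same sign, but only 1 was called.

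Ndc80, the kinetochore gene with the largest rise, read 105, 324 and 379.6 in KO P5 air, against 74.9, 89.0, 118 and 71.2 in KO E19 (1.23, SE 0.31, adjusted p = 0.0285). KO P5 air replicate 1 lay within the KO E19 range. Racgap1 read 428, 838 and 862 in KO P5 air, against the E19 values given above (1.21, SE 0.31, adjusted p = 0.0305). Aurkb read 262, 500.1 and 417 and rose by 1.09 (SE 0.27). Top2a read 1699, 2859 and 2948 and rose by 0.82 (SE 0.20). In each of these genes replicates 2 and 3 were the high P5 lungs, and replicate 1 lay lower, for Ndc80 and Racgap1 within the E19 range.

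The pattern was similar in part of the other risers. Nuf2 read 331, 485 and 500.1 in KO P5 air (1.04, SE 0.23), and Kif23 read 345, 579 and 646, against 193, 249, 279 and 394 in KO E19 (0.84, SE 0.20). Ccnb2 read 659.8, 1162 and 1231 in KO P5 air, against 402, 476, 841 and 588 in KO E19 (0.79, SE 0.21). Again replicate 1 was the lowest P5 lung in these 3 genes. Kif4 read 363, 339 and 399 in KO P5 air (0.77, SE 0.18), and Ttk read 325, 392 and 341 (0.75, SE 0.20). Nusap1 read 920.0, 1759 and 1438 in KO P5 air, against 744, 765, 1009 and 729 in KO E19 (0.70, SE 0.18), and Tpx2 was at 0.77. Beside them 10 of 45 other mitosis genes rose, among them Ckap2 at 1.09 and Ska1 at 1.02, and 5 of 38 DNA replication genes, among them Mcm3 at 1.29. The inhibitor Cdkn1a was at -1.10 (SE 0.52, adjusted p = 0.226), Mybl2 at 0.66, Foxm1 at 0.15, Ccne1 at 0.79, Ccnd1 and Ccnd2 at 0.53 and 0.62, and Cdkn1b and Cdkn1c at -0.30 and -0.53, none called.

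The rise in KO did not hold in every setting. For the settings named next the share of all genes called is not given. limma called 0 genes without KO P5 air replicate 2 or 3, 24 without KO P5 air replicate 1, 7 without KO E19 replicate 1, 20 without replicate 3 and 17 without replicate 4 of KO E19, and 0 with the compared groups alone, against the 11 above. The test of the difference between the genotypes, the change at P5 air minus that at E19, called 0 of the 33 genes (0.187% of all genes were called in either direction), although all 33 were above 0 with a median of 0.78 and 17 had an unadjusted p under 0.05 (11.6% of all genes). The nearest to a call was Kif4 at 1.06 (SE 0.26, adjusted p = 0.0928). The median change of all genes in it was 0.058. It shares the KO and WT E19 arrays with the genotype comparison at E19. The liver, erythroid and neutrophil precursor lists had medians of 0.60, 1.13 and 1.47 in it, with no gene called. Their part in the mitosis values was not tested.

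Between P5 and P56 mitosis transcripts fell in both genotypes, after air and after hyperoxia. In WT air all 33 genes fell, where 10.8% of all genes fell, with a median change of -2.56 (range -3.25 to -0.94) against -0.0034 over all genes. In KO air 32 fell (median -1.99, 14.3% of all genes), in KO after hyperoxia 33 (median -2.26, 12.4%) and in WT after hyperoxia 33 (median -2.04, 10.7%). Without WT P56 hyperoxia replicate 2, the adult array with the high 3'/5' ratio, 33 fell in WT after hyperoxia (median -2.02). Leaving out any 1 array kept between 30 and 33 calls in each of these 4 comparisons.

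Cdk1 had the largest fall in WT air. It read 205, 145 and 182 in WT P56 air, against 1889, 2212 and 1635 in WT P5 air (-3.25, SE 0.28, adjusted p = 3.76e-09). The adult and neonatal values lay far apart. Plk1, the entry gene with the smallest change, read 127, 101 and 94.6 at P56, against 768, 904 and 567 at P5 (-2.51, SE 0.41). Of the passenger complex Cdca8 fell most, with 199, 235 and 183 at P56 against 1746, 2137 and 1290.1 at P5 (-2.89, SE 0.26). Incenp fell least, with 828, 919.7 and 703 at P56 against 3132, 3286 and 2502 at P5 (-1.83, SE 0.29). The adult signals of Aurkb, 93.4, 83.2 and 32.3, were all under the median of all values.

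Among kinetochore genes Cenpf fell most, with 122, 112 and 134 at P56 against 1318, 1457 and 841 at P5 (-3.01, SE 0.27), and Nuf2 least, with 105, 111 and 64.2 against 438, 570.3 and 426 (-2.09, SE 0.25). Of the checkpoint genes Bub1 read 117, 139.8 and 107 at P56, against 908, 1030.1 and 782 at P5 (-2.66, SE 0.26), and Ttk read 59.6, 52.0 and 64.4 against 429, 533 and 252 (-2.29, SE 0.22). No adult value reached a neonatal one in these 4 genes. Of the spindle genes Kif2c changed by -2.83 (SE 0.28), with 144, 103 and 104 at P56 against 974, 1244 and 780.1 at P5. Kif4 was the exception of the list: it read 177, 182 and 138 at P56, against 328, 422 and 283 at P5, and its change of -0.94 (SE 0.19, adjusted p = 0.000710) was the smallest of the 33. Of the cytokinesis genes Racgap1 fell most, with 119.9, 128 and 87.8 at P56 against 937, 1034 and 694 at P5 (-2.72, SE 0.33). Kif23 fell least, with 171, 134 and 141 at P56 against 797, 763 and 487 at P5 (-1.99, SE 0.22). Top2a read 431, 381 and 342 at P56, against 3335, 3756 and 2714 at P5 (-3.00, SE 0.21), and Mki67 read 472, 500.5 and 479 against 4378, 4162 and 2820.0 (-2.88, SE 0.32).

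For 7 genes, Aurkb, Cenpe, Ndc80, Ttk, Bub1b, Kif11 and Kif20a, every WT adult array in air was under the median of all values, so the size of the fall depends on the 26.3 units added before the log. Measured against that median their falls were of at least 2.24 for Aurkb, 2.07 for Kif11, 2.0 for Cenpe, 1.71 for Ttk, 1.69 for Ndc80, 1.57 for Kif20a and 1.51 for Bub1b. In KO air the gene that was not called was Incenp, with 2142, 1139.8 and 1029 at P56 against 1493, 2433 and 2737 at P5 (-0.65, SE 0.29, adjusted p = 0.0981). KO P56 replicate 1 and KO P5 replicate 1, at 2142 and 1493, made the groups overlap. The largest falls in KO air were those of Cenpf (-2.61) and Cdk1 (-2.59) and the smallest called that of Ect2 (-1.0). After hyperoxia Cdk1 was at -3.18 in KO and -2.78 in WT, and the smallest changes were those of Incenp in KO (-0.99) and Kif4 in WT (-0.61), whose adjusted p was 0.0218.

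Other lists fell with age in WT air: 43 of 45 other mitosis genes (median -2.10), 33 of 38 DNA replication genes (median -1.49), 9 of 17 condensin and cohesin genes, 8 of 22 cell-cycle transcription factors and 5 of 9 G1 genes. Spc25, of the NDC80 complex, was at -3.35, Kif22 at -3.31 and Uhrf1 at -2.99. Mybl2 was lower at -1.38 and Ccne1 at -2.26, both called, and the inhibitor Cdkn1c, which is known from growing tissues, fell by 1.56. Foxm1, Cdkn1a, Cdkn1b, Ccnd1 and Ccnd2 were at -0.39, -0.0512, 0.0195, -0.0601 and -0.24 and not called. In KO air Mybl2, Cdkn1c and Ccne1 were the regulators that fell, in KO after hyperoxia also Ccnd1 (-0.64) and Ccnd2 (-0.75), with Cdkn1b higher (0.51), and in WT after hyperoxia also Cdkn1a (-1.84) and Ccnd1 (-0.66). In WT air 11 of 13 liver genes and 9 of 14 erythroid genes fell as well. In KO after hyperoxia, where the summed liver signal was low at both ages (2761 to 2960 at P56 and 1073 to 1208 at P5), all 33 mitosis genes fell. There 6 of 8 muscle genes (median -4.15), 5 of 5 squamous epithelium genes (median -2.81) and 4 of 14 erythroid genes (median -1.24) fell too, and their part in the mitosis values was not tested.

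In neonates kept in air no mitosis gene differed between the genotypes by the test, although nearly all leaned lower in KO. The median change was -0.41 (range -0.68 to 0.10) against 0.0097 over all genes, and 32 of the 33 genes were below 0. limma called 0 of 33 (adjusted p from 0.724 up, while 0.0375% of all genes were called), and 5 had an unadjusted p under 0.05, where 5.57% of all genes did. For 4 genes, Mad2l1, Aurka, Kif11 and Kif20a, every KO lung lay below every WT lung, which held for 8.41% of all genes.

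Mki67 read 1706, 3016 and 3731 in KO air, against 4378, 4162 and 2820.0 in WT air, a change of -0.47 (SE 0.32). Top2a, Cdk1, Birc5 and Aurkb had changes of -0.41 (SE 0.21), -0.26 (SE 0.28), -0.44 (SE 0.29) and -0.56 (SE 0.29). In all 5 genes KO replicate 1 was the lowest lung and replicates 2 and 3 lay within or next to the WT range. Mad2l1 had the lowest p of the list, with 805, 1512 and 1766 in KO against 2182, 2054 and 2036 in WT (-0.68, SE 0.24, adjusted p = 0.724). Kif4 was the one gene above 0, at 0.10. The regulators Foxm1, Mybl2 and Ccne1 were at -0.26, -0.34 and -0.68, Ccnd1 and Ccnd2 at -0.21 and -0.39, and Cdkn1a, Cdkn1b and Cdkn1c at -0.52, 0.23 and -0.0266, none called.

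KO P5 air replicate 1 lay below every WT P5 air lung for 31 of the 33 genes, replicate 2 for 9 and replicate 3 for 11. The share of all genes that do so was not computed for single KO arrays. The counts of replicates 2 and 3 are therefore not read as a difference. The median difference from the WT mean was -0.92 in replicate 1, -0.14 in replicate 2 and -0.11 in replicate 3. The Cdkn1a signal of replicate 1 was 1881, and its mitosis level of 0.23 lay within the range of the KO E19 lungs; its age label was taken as given. Without that lung the median of the list was -0.12, still with 0 calls, and array weights called 6 genes lower, where that fit called 10.8% of all genes in either direction. Liver transcripts separated these groups too, with summed signals of 4963, 1883 and 1256 in KO and 77287, 45581 and 24335 in WT, and with the liver level as a covariate the median was -0.22. Without the pair of arrays whose Cdkn1a went against their labels it was -0.52.

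The 5 days of hyperoxia went with lower mitosis signals in WT neonates, none called. All 33 changes were below 0, with a median of -0.35 (range -0.54 to -0.16) against -0.0162 over all genes. limma called 0 of 33 (0.00749% of all genes were called), and 2 had an unadjusted p under 0.05, where 3.06% of all genes did. For 16 genes every hyperoxia lung lay below every air lung, which held for 9.89% of all genes.

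Birc5 read 679.8, 794 and 964 in WT hyperoxia, against 1121, 1347 and 990.0 in WT air (-0.49, SE 0.29, adjusted p = 0.9998), and the groups did not overlap. Cdk1 read 1412, 1471 and 1559 in hyperoxia, against 1889, 2212 and 1635 in air (-0.35, SE 0.28), again without overlap. Aurkb, Top2a and Mki67 were at -0.35 (SE 0.29), -0.28 (SE 0.21) and -0.26 (SE 0.32). In Cenpa, with the largest change, the values were 804, 819 and 920.1 in hyperoxia and 1225, 1422 and 1108 in air (-0.54, SE 0.35). The WT hyperoxia lungs were the most alike of all groups, with a median SD of 0.10 over the list. Cdkn1a was at 2.07 (SE 0.55, adjusted p = 0.9998), and Foxm1, Mybl2, Ccne1, Ccnd1, Ccnd2, Cdkn1b and Cdkn1c at -0.0893, -0.15, -0.28, 0.40, 0.26, -0.0125 and -0.21, none called.

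This result moved with the settings: array weights called 31 of the 33 genes lower (median -0.51), where that fit called 24.2% of all genes in either direction, while without WT air replicate 2 the median was -0.23 and without WT air replicate 3, the air lung with high Cdkn1a, it was -0.48. The summed liver signal was 4830 to 12930 in hyperoxia and 24335 to 77287 in air, and with the liver level as a covariate the median was -0.24 and Mki67 stood at 0.18.

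In KO neonates the list leaned the other way, again with no call. The median change was 0.24 (range -0.30 to 0.54) with 29 of 33 genes above 0, and limma called 0 of 33, where it called 0.345% of all genes, with 0 of 33 at an unadjusted p under 0.05 (5.84% of all genes). Birc5 read 1281, 1209 and 1200.1 in KO hyperoxia, against 498, 1191 and 987 in KO air (0.54, SE 0.29, adjusted p = 0.950). Birc5 and Aurka were the 2 genes in which every hyperoxia lung was above every air lung (7.22% of all genes). Mki67, Top2a, Cdk1 and Aurkb were at 0.41 (SE 0.32), 0.28 (SE 0.21), 0.13 (SE 0.28) and 0.40 (SE 0.29). Without KO air replicate 1 the median was -0.0168 and 18 of 33 genes were below 0, and without KO hyperoxia replicate 1, the exposed lung with low Cdkn1a, it was 0.11. In the same comparison 5 of 8 muscle genes (median 4.57) and 4 of 5 squamous epithelium genes (median 3.10) rose, and their part in the mitosis values was not tested. Cdkn1a was at 1.93 (SE 0.55, adjusted p = 0.243), Mybl2 at 0.31, Foxm1 at 0.0446, Ccne1 at 0.40, Ccnd1 and Ccnd2 at 0.46 and 0.67, and Cdkn1b and Cdkn1c at -0.31 and -0.22.

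Between the genotypes after hyperoxia the median was 0.17 (0 of 33 called and 0 at an unadjusted p under 0.05, where 0.187% and 3.02% of all genes passed; 8 genes with every KO lung above every WT lung, against 9.90% of all genes). Birc5 had the largest difference, 0.60 (SE 0.29, adjusted p = 0.9999). Mki67, Top2a, Cdk1 and Aurkb were at 0.20, 0.15, 0.23 and 0.19. The level of the list was highest in KO replicate 1, at 1.22, and without that array and WT air replicate 3 the median was 0.0419. Squamous epithelium and muscle transcripts were high in these 3 KO lungs, with levels of 2.54 to 3.14 and 2.44 to 2.71 against -0.84 to -0.58 and -1.17 to 1.76 in the WT hyperoxia lungs, and their part in the mitosis values was not tested. The regulators Foxm1, Mybl2, Cdkn1a, Cdkn1b, Cdkn1c, Ccnd1, Ccnd2 and Ccne1 were at -0.12, 0.12, -0.66, -0.0768, -0.0357, -0.15, 0.0146 and -0.0009, none called.

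The test of whether the response to hyperoxia differed between the genotypes at P5 called 0 of the 33 genes (0.150% of all genes). The median of that difference was 0.61, with 32 of 33 genes above 0, and 4 genes had an unadjusted p under 0.05 (2.30% of all genes): Birc5 at 1.03 (SE 0.42), Kif20a at 0.84 (SE 0.36), Aurka at 0.77 (SE 0.37) and Nusap1 at 0.62 (SE 0.27), each with an adjusted p of 1. Over the arrays left out in turn its median ran from 0.32 to 0.74. Of the same marker lists 2 of 8 muscle genes (median 4.47) and 4 of 5 squamous epithelium genes (median 4.06) were called in this test, all above 0.

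In adults neither the genotype nor the earlier hyperoxia changed a mitosis gene by the test. KO against WT had a median of 0.13 after air (0 of 33 called, 0.0749% of all genes called; 4 at an unadjusted p under 0.05, 11.8% of all genes) and -0.0311 after hyperoxia (0 called, 0.0375% of all genes; 2 at an unadjusted p under 0.05, 8.72% of all genes). Hyperoxia against air had a median of -0.0636 in KO and 0.0783 in WT, with 0 of 33 called, 0 of all 13345 genes called by limma (0%), and 0 of the 33 in KO and 4 in WT at an unadjusted p under 0.05 (2.70% and 5.10% of all genes). With array weights limma called 2 of the 33 in KO and 4 in WT, where that fit called 3.47% and 6.68% of all genes. After air, 8 genes had every KO lung above every WT lung (17.9% of all genes), among them Ect2, with 785, 666 and 499 in KO against 333, 471 and 233 in WT (0.89, SE 0.31, adjusted p = 0.230), and Cdc20, with 1315, 979 and 969.6 in KO against 699, 703 and 591 in WT (0.68, SE 0.27, adjusted p = 0.290).

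Mki67 read 526, 525 and 587 in KO and 485, 856 and 572 in WT adults after hyperoxia, against 552, 369.5 and 564 in KO and 472, 500.5 and 479 in WT after air, and the 4 groups overlapped. The highest of these lungs, WT hyperoxia replicate 2, is the adult array with the high 3'/5' ratio. Without it the median of the list was -0.0432 for KO against WT after hyperoxia and 0.10 for hyperoxia against air in WT, each with 0 calls. For KO against WT after air Top2a, Cdk1, Birc5 and Aurkb were at 0.13, 0.40, -0.0344 and 0.0635, and after hyperoxia at -0.25, -0.17, 0.10 and -0.31. For hyperoxia against air they were at -0.16, -0.46, 0.0623 and -0.25 in KO, and at 0.23, 0.12, -0.0694 and 0.13 in WT. For Aurkb, Cenpe, Ndc80, Ttk, Bub1b, Kif11 and Kif20a all adult arrays of both groups were under the median of all values in each of these comparisons. Differences between adults in these genes are therefore of signals near background. In adults after air the regulators Foxm1, Mybl2, Ccnd1, Ccnd2 and Ccne1 were at 0.0359, 0.11, -0.29, -0.29 and 0.51 for KO against WT, and Cdkn1a, Cdkn1b and Cdkn1c at -0.30, 0.33 and -0.33, none called, nor was any of the 8 in the other adult comparisons. The difference between the genotypes in their response to the earlier hyperoxia had a median of -0.19 over the list (0 called, 0% of all genes called, 2 at an unadjusted p under 0.05, 2.46% of all genes).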

How the data were processed

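Total RNA from 32 lungs was measured on Affymetrix Mouse 430_2 arrays. The deposited values are intensities that the authors scaled with MAS5, per the submitters' processing notes, whose version is not given in the sources used here. Of 45101 probe sets, 64 are controls, 34945 carry 1 gene symbol in the platform annotation, 932 several and 9160 none. The deposited intensities were tested as log2(value + 26.3), the addition being their 25th percentile. Probe sets were kept where at least 3 arrays exceeded 100.4, the median of all values (23428 with 1 symbol), and the one with the highest mean stood for each of 13345 genes. Fold sizes depend on the addition where every array of a group is under that median. limma 3.58.1 in R 4.3.3 fitted 1 mean for each of 10 groups (22 residual degrees of freedom), with a variance trend and Benjamini-Hochberg adjustment over all genes, for 18 comparisons. The fitting was tested on simulated data. The number of arrays limits the precision, and since nothing ties the mice to separate litters, p-values measure only the spread between these arrays.

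The members and lists were chosen with earlier results of these data known. In a comparison with calls, the text gives per-array values for the called gene of largest and of smallest change in each role and for uncalled genes where at most 5 were not called; in one without calls it names Mki67, Top2a, Cdk1, Birc5 and Aurkb. Other genes named in comparisons without calls (Aurka, Cdc20, Cenpa, Ect2, Kif4, Kif11, Kif20a, Mad2l1, Nusap1 and the adult genes near background), and Cdk1, Plk1, Aurkb and Ect2 with per-array values at E19, go beyond this rule and were chosen after their values were seen, as were a few in comparisons with calls. For 3 of the 4 comparisons of P56 with P5 changes alone are given for most genes. From other lists (other mitosis genes, DNA replication, condensin and cohesin, the anaphase-promoting complex, transcription factors, G1 genes, inhibitors, and markers of liver, erythroid cells, neutrophil precursors, lung epithelium, muscle, squamous epithelium and thymus) counts, medians and up to 4 called genes are given, and 8 regulators throughout. Of 46 pairs of same-numbered arrays 10 deviated together with a correlation above 0.1 (range -0.41 to 0.28), so the fit is unpaired. Every pair did so in 1 of 15 comparisons, KO against WT in P5 hyperoxia, where the replicate block called 0 of the 33 genes, as did the unpaired fit. Alternatives covered filters, the addition, normalization, fits of the compared groups alone, array weights, the replicate block, liver and erythroid covariates, and arrays left out.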

Additional observations from a re-analysis of the deposited data

Results flagged for a closer look

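In 3 of the 68 sets of 4 E19 signals examined, 1 array stood far from the other 3, and chance alone flags about 1 in 20 sets. Nusap1 read 1009 in KO E19 replicate 3, against 729 to 765 in the other KO E19 lungs. Cenpa read 2043 in WT E19 replicate 4, against 1260 to 1352 in the other WT E19 lungs. Bub1 read 1363 in the same WT lung, against 913 to 957 in the others. For Birc5 and Aurka at P5 the KO hyperoxia lungs were all above the KO air lungs while the WT hyperoxia lungs were all below the WT air lungs. Both genes were picked from the list for this pattern, and the share of all genes that show it is not given. For Birc5 the gap was narrow in KO, where the highest air lung read 1191 and the lowest hyperoxia lung 1200. These groups include KO air replicate 1 and the pair of P5 arrays whose Cdkn1a went against their labels. A separation that holds for every array also holds with those arrays left out. How far the size of the difference depends on them is not given for these genes. The difference between these oxygen effects was 1.03 for Birc5 and 0.77 for Aurka on the log2 scale. The genotype-by-oxygen term of the limma fit gave an unadjusted p of 0.02005 and 0.04542 and a Benjamini-Hochberg adjusted p of 1 for each, so neither is called.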

How the results depend on the processing

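The fall of all or nearly all genes between P5 and P56 kept its call in each of the 4 conditions under every alternative run (27 to 33 genes, where the stricter filter left 28 to test), with 30 to 33 genes called over the arrays left out in turn in KO air, 33 to 33 in WT air, 32 to 33 in KO after hyperoxia and 32 to 33 in WT after hyperoxia. At E19 the count for KO against WT was 30 to 33 over the arrays left out in turn and 32 with the replicate block, and median centring, under which the median of all genes shifted to 0.23, called 29. That centring also shifted the median of all genes to 0.12 for KO against WT in P5 air, where the list stood at -0.30. It was 1 with the compared groups alone, 8 with the liver level and 3 with the erythroid level as a covariate, and 0 with WT replicate 1 as the only WT lung. It was also 0 with KO replicates 2 to 4 against WT replicate 1, an alternative chosen after seeing the data, as were leaving out both arrays with high 3'/5' ratios (33) and leaving out KO P5 air and KO E19 replicates 1 together. The rise in KO between E19 and P5, 11 genes, was 7 with a stricter filter, 3 with quantile normalization, 2 with median centring, 0 with the compared groups alone, 26 with array weights, 25 without both of those KO arrays, 10 with the replicate block and 0 to 24 over the arrays left out in turn. The genotype difference in that change, 0 genes, was 2 with array weights, 1 without both KO arrays and 0 to 2 over the arrays left out in turn. Array weights, which give arrays unequal weight, called 24 of the 33 genes for KO against WT at E19. That fit called 9.7% of all genes there. The weights also called genes where the main fit called none. For KO against WT these were 6 at P5 and 4 at P56 after air, and 2 at P5 and 8 at P56 after hyperoxia. For hyperoxia against air they were 2 in KO P5, 31 in WT P5, 2 in KO P56 and 4 in WT P56. The count was 1 for P5 against E19 in WT, and 4 and 3 for the genotype-by-oxygen difference at P5 and P56. In these 11 comparisons that fit called 2.45% to 35.5% of all genes. KO against WT in P56 air had 2 calls, Cdc20 and Ect2, with the compared groups alone. Leaving out arrays in turn gave 0 to 0 calls in the other comparisons. Single genes reversed 8 times in all named genes and settings, and the cause was not tested: hyperoxia against air in KO P5 for Top2a with array weights (-0.0188) and for Cdk1 with array weights (-0.17), without the pair of P5 arrays whose Cdkn1a went against their labels or KO hyperoxia replicate 1 alone (-0.0332 each) and without KO air replicate 1 alone or with KO E19 replicate 1 (-0.10 each; over the arrays left out in turn -0.10 to 0.25); and Mki67 with the liver covariate for KO against WT in P5 air (0.16) and for hyperoxia against air in WT P5 (0.18). Of the other values of single genes 2247 kept direction and call, 151 lost and 19 gained the call. The replicate block changed no other call count by more than 1.5 times. For alternatives other than array weights the share of all genes called is not given, so their call counts describe the list alone. Signals near background limit comparisons between adults, above all for the 7 genes under the median of all values in every adult array.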
